A study of Gallus gallus with 20 samples.

Results

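The chromatin of 40 collagen genes was examined in the chicken lens at embryonic day 4.5. They are the protein-coding genes of the RefSeq table of chicken build GRCg7b whose symbols name a collagen chain by its type and number, from COL1A2 to COL28A1, among 17839 protein-coding genes on assembled chromosomes. By the kind of protein they fall into 6 type IV genes, 8 fibrillar genes, 10 FACIT genes (fibril-associated collagens), 7 genes of beaded filaments and related collagens, 3 genes of short-chain networks, 4 genes of transmembrane collagens and 2 multiplexins. In CUT&RUN, an antibody tethers a nuclease that releases the DNA around the antibody's target. Per the labels, 3 pools of about 44 dissected lenses each were profiled without further treatment, at 100000 nuclei per reaction. Antibodies against H3K27me3 and H3K4me3 (histone H3 trimethylated at lysine 27 or lysine 4), EZH2, SUZ12, JARID2 and AEBP2 gave 3 libraries each, and non-specific IgG gave 2. The pools held whole lenses, so epithelial and fiber cells were not separated.

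Collagens are triple-helical proteins of the extracellular matrix. Type IV collagen forms the sheet-like network of basement membranes, and the capsule that surrounds the lens is a thick basement membrane laid down by the lens cells themselves. Fibrillar collagens such as types I, II, III, V and XI form the fibrils of connective tissue, cartilage and the vitreous, and FACIT collagens sit on those fibrils. H3K27me3 is the repressive mark written by Polycomb repressive complex 2 (PRC2), of which EZH2 and SUZ12 are core subunits and JARID2 and AEBP2 accessory ones, and H3K4me3 marks active and poised promoters.

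Each antibody was represented by 1 deposited peak list, so no value per library stands behind any result, no difference could be set against the spread between libraries, and no test was made. The lists held from 11079 (H3K4me3) to 168110 (AEBP2) peaks on assembled chromosomes. Antibodies were used at dilutions of 1 in 25 (AEBP2), 1 in 50 (H3K27me3, H3K4me3, JARID2) or 1 in 100 (EZH2, SUZ12). Read depth is unknown, and no IgG list was analysed here. The fold of a peak is the value the authors deposited for it, its enrichment over local background, and it was ranked only among peaks of its own list. A gene was said to have a peak at an end when a peak overlapped the 1 kb on either side of its first or last base. The gene table gives no strand, so the start and the far end of a gene were not told apart and are called by low and high coordinate. An interior peak lay inside the gene and touched neither end window. To describe the tissue, 16 lens marker genes were examined, among them CRYAA, MIP, BFSP2 and FOXE3. The marker lists were chosen with earlier results of these data known, so they are not an independent check. All 16 had H3K4me3 at an end (against 57.2% of all genes) and 0 had H3K27me3 (against 26.0%). Their H3K4me3 folds ran from 2.04 (CRYBB1) to 65.4 (PROX1), and the median fold of the H3K4me3 list was 9.41. Markers of other cells that could accompany a dissected lens had H3K4me3 at 4 of 12 mesenchymal, 3 of 9 cartilage, 0 of 9 endothelial and 3 of 8 retinal and pigment epithelial genes, and each of those 10 genes with H3K4me3 also had H3K27me3. In the same order, H3K27me3 was at 10 of 12, 7 of 9, 4 of 9 and 6 of 8 genes. Neither mark was at 2, 2, 5 and 2 of them (against 28.7% of all genes). The part that these other cells had in the values below was not tested.

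Collagen genes carried H3K27me3 more often, and H3K4me3 less often, than genes at large. H3K27me3 lay at an end of 20 of the 40 genes (50%), against 26.0% of all protein-coding genes, and H3K4me3 at 14 of 40 (35%), against 57.2%. H3K27me3 alone was found at 15 collagen genes (37.5%, against 14.0% of all genes), H3K4me3 alone at 9 (22.5%, against 45.3%), both marks at 5 (12.5%, against 12.0%) and neither at 11 (27.5%, against 28.7%). EZH2 was at 22 collagen genes (55%, against 59.3%), SUZ12 at 22 (55%, against 64.5%), JARID2 at 20 (50%, against 43.2%) and AEBP2 at 19 (47.5%, against 37.1%). Where a gene had the mark, the median of its highest fold was 15.3 over 20 collagen genes and 12.5 over all 4637 genes for H3K27me3, and 11.1 over 14 collagen genes and 13.7 over 10209 genes for H3K4me3. COL6A6, COL9A1 and COL15A1 had no peak of any list at an end (7.5% of collagen genes, against 16.0% of all genes), while COL7A1, COL11A1 and COL24A1 had peaks of all 6.

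**Figure D1:**
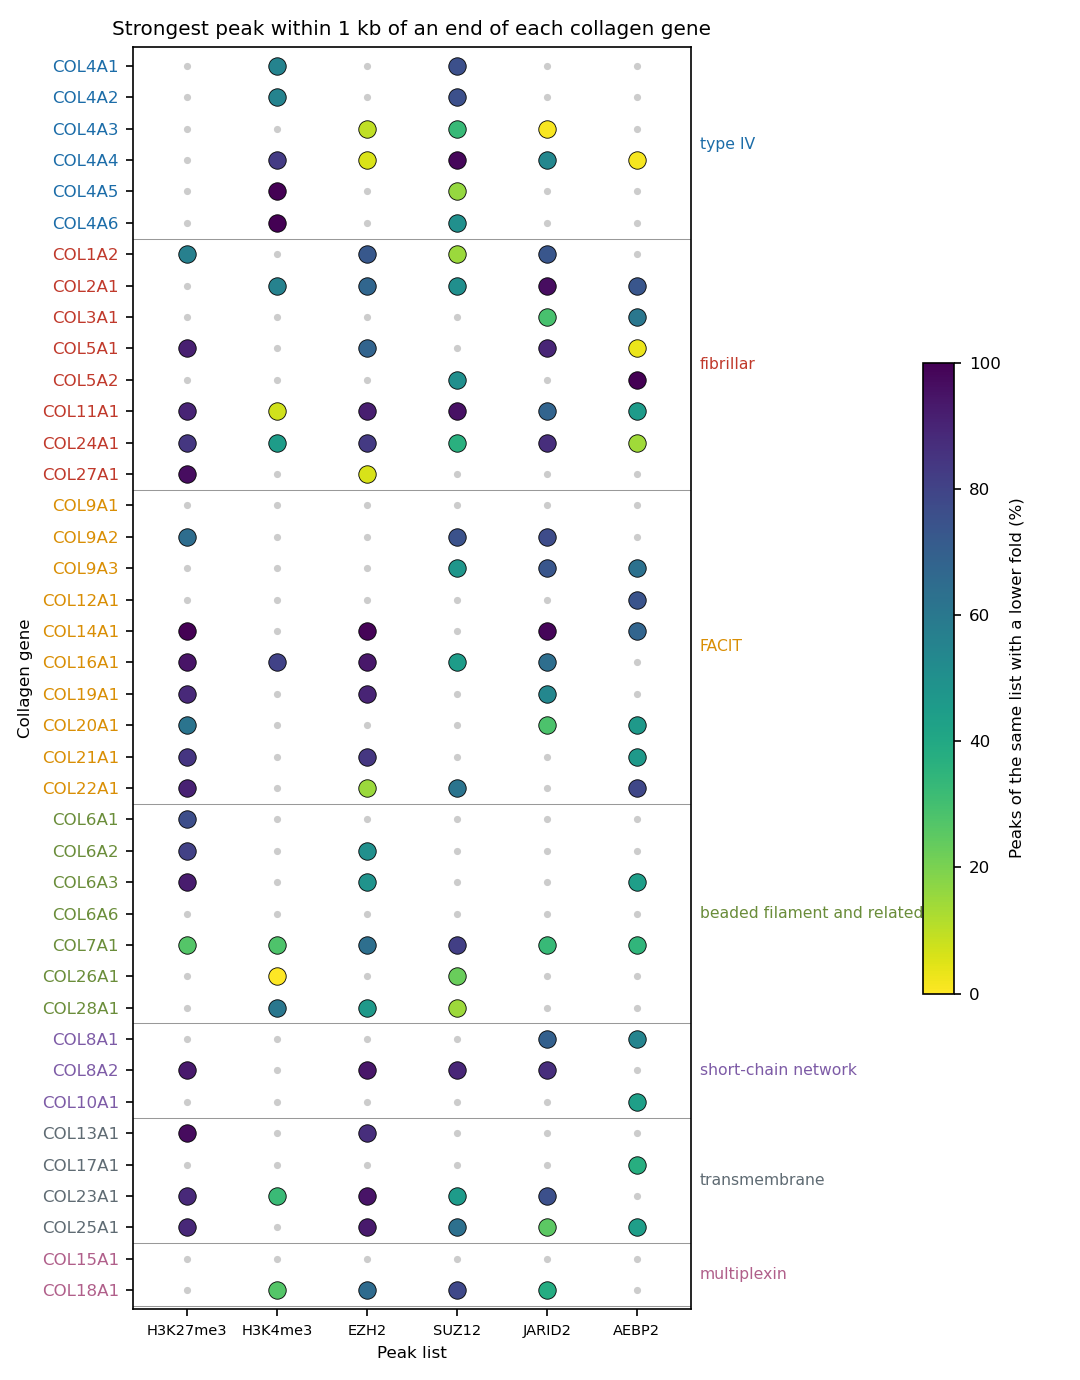
Strongest peak within 1 kb of an end of each of the 40 collagen genes (rows, grouped by collagen class) in each of the 6 peak lists (columns). A large dot marks a peak, coloured by the percentage of peaks of the same list with a lower fold, and a small grey dot marks a gene with no peak. The H3K27me3 column is empty for the 6 type IV genes, and 5 of them have H3K4me3.

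Type IV genes and the other collagens carried the marks in different proportions. H3K4me3 was at an end of 5 of 6 type IV genes, against 9 of the other 34 (26.5%) and 57.2% of all genes. H3K27me3 was at 0 of 6 type IV genes, against 20 of the other 34 (58.8%) and 26.0% of all genes. Of the other collagens, fibrillar genes had H3K27me3 at 5 of 8 and H3K4me3 at 3 of 8, and FACIT genes had them at 7 of 10 and 1 of 10. SUZ12 was at 6 of 6 type IV genes and at 16 of the other 34 (47.1%), against 64.5% of all genes. Among all genes with H3K4me3 alone, 89.7% had SUZ12. The other PRC2 members were at fewer of the type IV genes. EZH2 was at 2 (against 59.3% of all genes), JARID2 at 2 (against 43.2%) and AEBP2 at 1 (against 37.1%). These counts depended on the limit set on a list. With each list held to its 11079 strongest peaks by fold, SUZ12 was at 1 type IV gene (against 21.8% of all genes at that setting). EZH2, JARID2 and AEBP2 were then at 0 (against 29.8%, 14.0% and 2.99% of all genes). Under a higher q-value limit instead (−log10 q of at least 5), SUZ12 stayed at 6 of 6 (against 55.9% of all genes). EZH2 was then at 2 (against 55.2%), JARID2 at 1 (against 30.0%) and AEBP2 at 1 (against 24.0%). The type IV genes lie in adjoining or overlapping pairs. COL4A1 and COL4A2 share peaks at their ends, as do COL4A5 and COL4A6, whereas COL4A3 and COL4A4 do not. The type IV counts thus rest on 3 distinct H3K4me3 peaks and 6 distinct SUZ12 peaks. At COL4A3 the SUZ12, EZH2 and JARID2 peaks all lay at an end of the next gene, MFF, too.

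**Figure D2:**
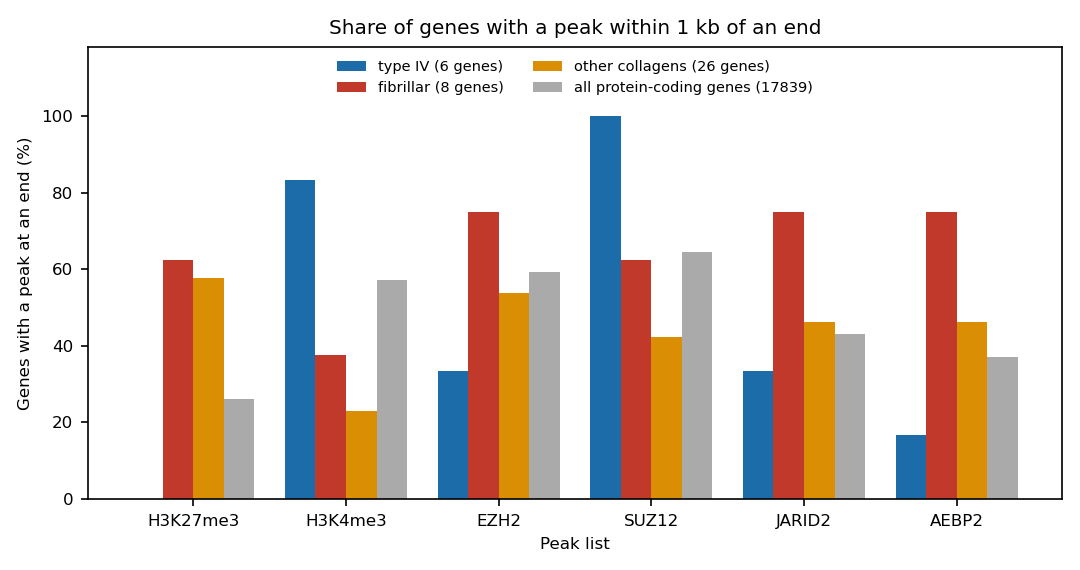
Percentage of genes with a peak within 1 kb of an end (vertical axis) in each of the 6 peak lists, for type IV, fibrillar and other collagen genes and for all 17839 protein-coding genes. Type IV genes stand at 0% for H3K27me3 and at 83.3% for H3K4me3, and the fibrillar genes at 62.5% and 37.5%.

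COL4A5 and COL4A6, which encode minor type IV chains that can assemble with each other, had the highest H3K4me3 value of the family. Their facing ends on chromosome 4 are 412 bp apart. A single H3K4me3 peak from 13937046 to 13941457 spanned both ends with a fold of 142, the 18th highest in the list, and its width of 4.41 kb exceeded that of 99.3% of H3K4me3 peaks. A SUZ12 peak of 3.49 kb lay inside it, from 13937261 to 13940753, with a fold of 2.75. That SUZ12 fold was above 15.9% of its list. No peak of H3K27me3, EZH2, JARID2 or AEBP2 lay within 1 kb of any end of the pair. COL4A6 had a further SUZ12 peak at its far end (fold 3.76), which also lay at an end of the neighbouring gene ATG4A.

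COL4A1 and COL4A2 encode the chains found in nearly every basement membrane. Their annotated ends on chromosome 1 overlap by 901 bp. H3K4me3 spanned the overlap from 138918549 to 138921244, a width of 2.7 kb, with a fold of 11.1, above 55.2% of the list. SUZ12 covered 138919335 to 138921330 with a fold of 4.89. This pair had peaks of the same 2 lists at its shared ends as COL4A5 and COL4A6, with a lower H3K4me3 fold.

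COL4A3 and COL4A4 encode chains best known from the mammalian kidney, inner ear and eye. In the gene table they overlap by 19210 bp on chromosome 9. The high-coordinate end of COL4A4 had an H3K4me3 peak from 9037679 to 9040914 with a fold of 25.3, above 82.5% of the list, and a SUZ12 peak with a fold of 8.7, the highest SUZ12 value at an end of any collagen gene. The same end had 2 EZH2 peaks with folds up to 1.89, a JARID2 peak with 4.53 and an AEBP2 peak with 2.05. COL4A3 counted as having neither mark, because that H3K4me3 peak lies inside it, 17358 bp from its annotated low end. The EZH2, SUZ12 and JARID2 peaks at the far end of COL4A3 had folds of 2.12, 3.24 and 2.15 and also lay at an end of the next gene, MFF. The next H3K4me3 peak past that end began 1137 bp away, just outside the window, with a fold of 12.0.

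**Figure D3:**
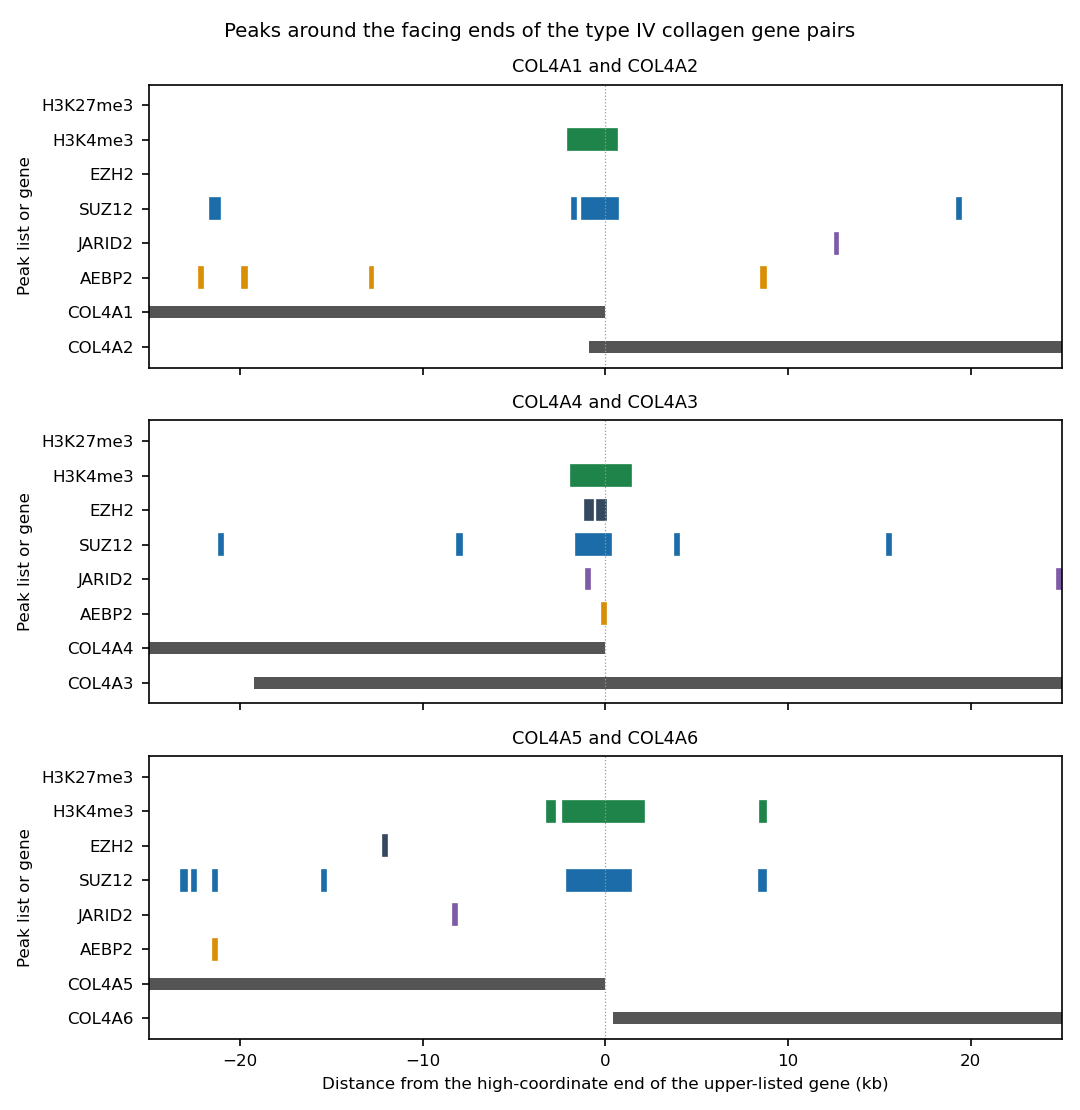
Peaks of the 6 lists around the adjoining or overlapping ends of the 3 type IV gene pairs (horizontal axis, distance in kb from the high-coordinate end of the gene listed first). Coloured bars are peaks, drawn to scale, and grey bars are the annotated genes. An H3K4me3 peak and a SUZ12 peak lie at the dotted line in all 3 pairs, and the H3K27me3 row is empty throughout the 25 kb on either side.

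No H3K27me3 peak was detected in the interiors of the type IV genes, which are 64.6 to 142 kb long. H3K27me3 was at neither the ends nor the interior of 6 of 6 type IV genes and of 10 of the other 34 collagens. Together these were 16 of 40 collagen genes (40%), against 69.5% of all genes and 59.6% of the 6563 genes of at least 20 kb. The H3K27me3 peak nearest to a gene end was at least 40587 bp away for each of the 6. Interior peaks depend on length, and collagen genes are long, with a median of 79.4 kb against 12.1 kb for all genes. Of all 40 collagen genes, interior AEBP2 peaks were found in 36 (against 42.6% of all genes), JARID2 in 37 (against 42.5%), SUZ12 in 36 (against 45.9%) and EZH2 in 25 (against 25.5%), with H3K27me3 in 16 (against 13.7%) and H3K4me3 in 8 (against 11.1%). The shares were closer once shorter genes were left out. Of the 37 collagen genes of at least 20 kb, AEBP2 was inside 34 (against 82.3% of all genes of that length), JARID2 inside 35 (against 74.8%), SUZ12 inside 34 (against 80.6%) and EZH2 inside 22 (against 50.6%), with H3K27me3 inside 14 (against 26.3%) and H3K4me3 inside 7 (against 20.9%). Per 100 kb of interior, these collagens held 4.05 JARID2, 5.39 SUZ12 and 1.51 EZH2 peaks, against 4.1, 4.94 and 1.7 in all genes of that length. For AEBP2 the values were 18.7 and 14.7, for H3K27me3 2.28 and 1.62, and for H3K4me3 0.257 and 0.392.

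Within the type IV genes the interior peaks of SUZ12 were unevenly spread. Over genes of at least 20 kb, type IV interiors held 9.52 SUZ12 peaks per 100 kb, against 4.56 in the 31 other collagens and 4.94 in all 6563 genes. COL4A5 had 18 interior SUZ12 peaks (23.2 per 100 kb) and COL4A6 had 17 (14.2 per 100 kb), more per length than 97.7% and 90.3% of those genes. The other type IV genes had 2 to 8, and without COL4A5 and COL4A6 the type IV value was 5.37 per 100 kb, close to that of all genes. Because COL4A3 and COL4A4 overlap, a peak in the overlap can count as interior to both. Peaks at the high-coordinate end of COL4A4 counted as interior to COL4A3.

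Each of the 6 type IV genes had fewer interior AEBP2 peaks per length than the median gene of at least 20 kb. Their interiors held 2.55 AEBP2 peaks per 100 kb, against 21.9 in the other collagens and 14.7 in all genes of at least 20 kb, and the 6 genes ranged from 0.837 in COL4A6 to 4.5 in COL4A1. The median gene had 2.72 among type IV genes and 6.37 among all genes of that length. Type IV genes held more per length than 18.0% (COL4A6) to 38.0% (COL4A1) of those genes, so lower values were common. Genes with H3K4me3 alone had fewer AEBP2 peaks in general, 9.29 per 100 kb over all 3196 such genes. The median gene of that state had 4.67. The 8 collagens in that state had 4.91, but 5 of the 8 are type IV genes themselves. The others, COL18A1, COL26A1 and COL28A1, had 10.3, 4.7 and 20.4. The H3K4me3 peaks that placed COL26A1 and COL28A1 in that state also lay at ends of IFT22 and MIOS. The genes of that length on the same chromosomes averaged 16.0 on chromosome 1, 18.3 on chromosome 4 and 12.0 on chromosome 9. AEBP2 peaks were dense in the interiors of COL10A1, a collagen of hypertrophic cartilage (24 peaks, 47.7 per 100 kb), COL17A1, a hemidesmosome component of epithelia (17 peaks, 44.8), COL3A1 (59 peaks, 44.7), COL5A2 (43 peaks, 41.1) and COL12A1 (40 peaks, 38.6). None of these 5 genes had either histone mark at an end, but the next in order, COL21A1 (36.8), COL22A1 (36.6) and COL19A1 (32.5), had H3K27me3 alone. Over the 11 collagen genes of at least 20 kb with neither mark the value was 28.3 per 100 kb, against 16.4 in all 1346 such genes. COL4A3, which is among the 11, had 1.29, from the single AEBP2 peak that lies at the end of COL4A4. Genes with H3K27me3 alone held 21.0 per 100 kb over 14 collagens and 22.0 over all 990 such genes. JARID2 interiors held 2.04 peaks per 100 kb in type IV genes, 4.46 in the other collagens and 4.1 in all genes.

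**Figure D4:**
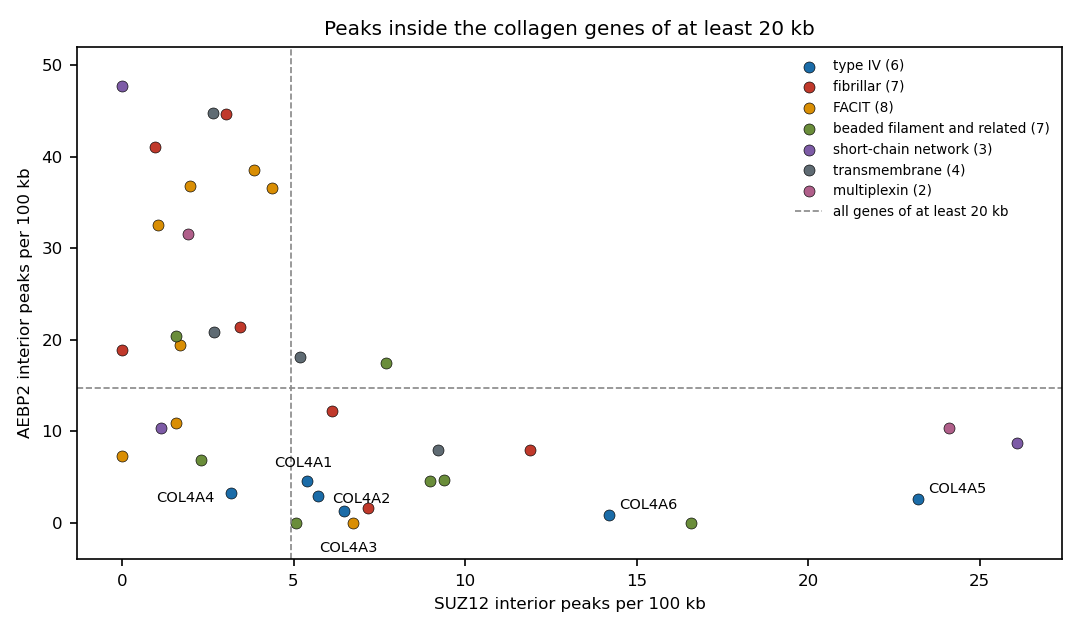
Interior peaks per 100 kb of SUZ12 (horizontal axis) and AEBP2 (vertical axis) in the 37 collagen genes of at least 20 kb, coloured by class, with type IV genes named. Dashed lines give the values over all 6563 genes of that length, 4.94 and 14.7. The type IV genes lie at 4.5 or fewer AEBP2 peaks per 100 kb, and COL4A5 and COL4A6 reach 23.2 and 14.2 for SUZ12.

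Among the 8 fibrillar genes, 3 had H3K27me3 alone (against 14.0% of all genes) and 2 both marks (against 12.0%). H3K4me3 alone was at 1 (against 45.3%) and neither mark at 2 (against 28.7%). COL1A2, a chain of type I collagen, had H3K27me3 from 23473840 to 23477605 on chromosome 2 with a fold of 4.52, above 57% of the list, together with EZH2 (5.17), SUZ12 (2.71) and JARID2 (5.64). COL5A1, which encodes a chain that regulates fibril diameter, had a 10.6 kb H3K27me3 peak at its low end with a fold of 19.2 and a second peak of 3.09 kb at its high end with 15.2. COL27A1, a fibrillar collagen of cartilage, had H3K27me3 at both ends, with a fold of 29 at its low end. Peaks with folds of 5.11 and 5.29 lay at its high end. A peak with 35.1, from 5463649 to 5464883, lay wholly past that end, which is at 5462706. It overlapped the 1 kb window only at its near edge, lay mostly outside it, and was at an end of ORM1 too. The highest H3K27me3 fold counted for COL27A1 came from this peak. EZH2 was low at the ends of COL27A1, at 1.93 in a single peak. No peak of SUZ12, JARID2 or AEBP2 lay at its ends.

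COL11A1 and COL24A1 had both marks at the same end. COL11A1, a chain of the cartilage and vitreous fibrils, had an H3K27me3 peak of 4.31 kb with a fold of 17.4 that contained an H3K4me3 peak of 646 bp with a fold of 2.47. Its H3K4me3 fold was above 7.36% of the list, whereas its H3K27me3 fold was above 90.1%. EZH2 (10.8), SUZ12 (7.35), JARID2 (5.19) and AEBP2 (3.63) were at the same end. COL24A1 had H3K27me3 with a fold of 10.9 and H3K4me3 with 7.22 at its low end, overlapping by 1401 bp, and the H3K4me3 peak at its other end lay at an end of ZNHIT6. COL2A1, the main cartilage and vitreous collagen, had H3K4me3 with a fold of 11.3 and JARID2 with 10.5, and no H3K27me3. The table's COL2A1 entry on chromosome 34 is only 2.94 kb long, so its values cover the ends of that entry and may not include the gene's start. COL3A1 and COL5A2, which adjoin on chromosome 7 with 6434 bp between them, had neither mark. COL5A2 had an AEBP2 peak at its low end with a fold of 13.8, above 99.9% of the AEBP2 list, and COL3A1 had one at its high end with 3.98, above 60.2%.

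The FACIT genes had H3K27me3 at 7 of 10 (against 26.0% of all genes), and among them COL16A1 also had H3K4me3, at its opposite end. COL14A1, whose product binds to the fibrils of dense connective tissue, had the strongest H3K27me3 of any collagen. Its peak from 135790411 to 135794583 on chromosome 2 had a fold of 122, the third highest among 4637 genes with the mark at an end. EZH2 there reached 53.4, the highest collagen value, and JARID2 14.5, also the highest, while SUZ12 had no peak at either end. An H3K4me3 peak of 448 bp with a fold of 6.59 lay inside the same H3K27me3 peak, 1154 bp from the annotated low end and so just outside the window. At their ends COL22A1 had 18.4, COL19A1 15.2, COL21A1 11.3, COL9A2 5.25 and COL20A1 4.92 as their highest H3K27me3 folds. COL16A1 had its marks at opposite ends, with H3K27me3 (27.7) at the end it shares with ADGRB2 and H3K4me3 (23.3) at the end beside PEF1. The type IX genes, whose chains coat the type II fibrils of cartilage, differed among themselves: COL9A2 had H3K27me3, COL9A3 had SUZ12, JARID2 and AEBP2 with folds of up to 3.76, 5.65 and 4.25, and COL9A1 had no peak at its ends. At COL9A3 the SUZ12 peak with 3.76 also lay at an end of TCFL5, and the AEBP2 peak at an end of OGFR.

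The 3 measured type VI chains that build the standard beaded filament, COL6A1, COL6A2 and COL6A3, had H3K27me3 alone with folds of 7.36, 8.86 and 21.7, and COL6A6 had no peak at its ends. EZH2 was present at COL6A2 (3.66) and COL6A3 (3.63) and not at COL6A1. COL7A1, the anchoring fibril collagen of skin, had both marks at low folds. At its low end H3K27me3 (2.55) overlapped H3K4me3 (4.78), and at its high end it had H3K27me3 with 3.14. COL28A1 and COL26A1 had H3K4me3 alone with folds of 12.8 and 1.44, the second among the lowest of its list, and those peaks also lay at ends of MIOS and IFT22.

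COL8A2, a collagen of the corneal Descemet membrane, had H3K27me3 with a fold of 22.8 in a single peak of 24.4 kb, whereas COL8A1 and COL10A1 had neither mark. Transmembrane collagens had H3K27me3 at 3 of 4 (against 26.0% of all genes). COL13A1, which acts at the neuromuscular junction, had a fold of 36.4, COL25A1, needed for motor innervation in mice, 15.3, and COL23A1 15.0 with H3K4me3 (5.48) inside the same peak. EZH2 was at all 3, with folds of 8.03, 12.7 and 16.2. Of the multiplexins, which are basement membrane proteoglycans, COL18A1 had H3K4me3 with a fold of 4.65 together with EZH2 (4.56), SUZ12 (3.18) and JARID2 (3.86) at its low end, and COL15A1 had no peak at its ends. Neither had H3K27me3 at an end or in the interior.

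H3K27me3 covered long stretches of a few collagen genes. In COL27A1, 28 interior peaks and those at the ends covered 103949 of 127492 bp (81.5% of the gene), the fifth largest length of H3K27me3 inside any protein-coding gene, with folds of interior peaks from 2.02 to 61.5. In COL8A2 77.9% of 24983 bp was covered. H3K27me3 covered at least 50% of 2 collagen genes (5%), against 5.69% of all genes and 1.22% of genes of at least 20 kb. COL16A1 had 25.8%, COL5A1 23.9% and COL9A2 17.6%, and the remaining collagens had 8.03% or less. Of the 2702 bp covered in COL9A2, 2684 bp were a single peak that also lay at an end of SMAP2. The covered part of COL16A1 includes the peak at the end it shares with ADGRB2. COL14A1, with the highest fold, had 3.32%. EZH2 had 7 interior peaks in COL27A1 (fold up to 10.3) and 7 in COL8A2 (up to 10.3), in genes of very different length.

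**Figure D5:**
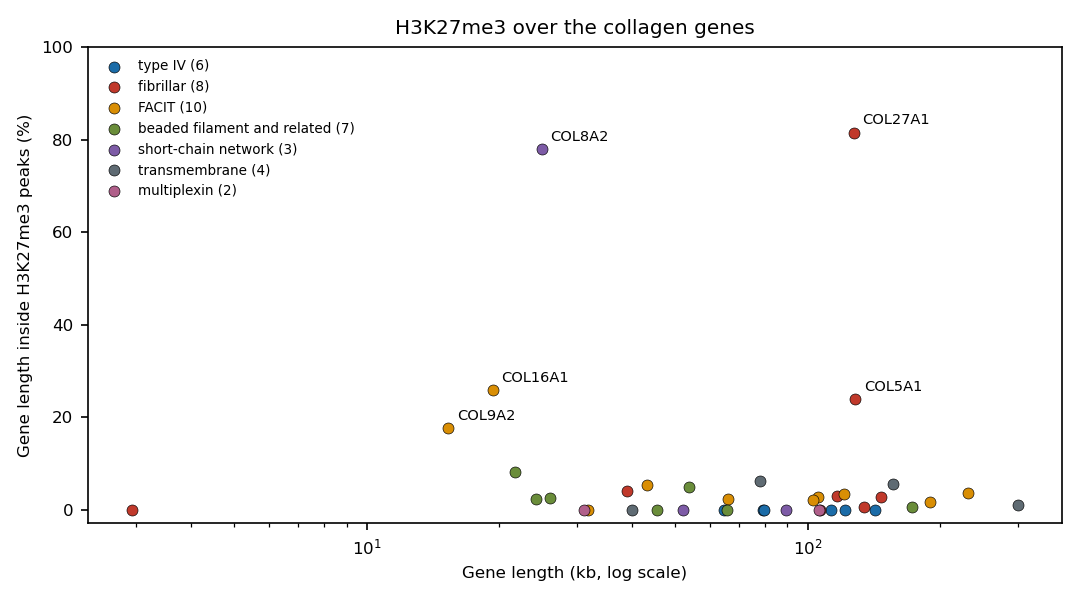
Percentage of each collagen gene inside H3K27me3 peaks (vertical axis) against gene length in kb (horizontal axis, log scale), coloured by class. COL27A1 (81.5%) and COL8A2 (77.9%) stand above all other members, and the 6 type IV genes lie at 0%.

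PRC2 members were then counted by mark. Of the 20 collagen genes with H3K27me3, EZH2 was at an end of 17 (against 86.8% of all genes with the mark), JARID2 at 13 (against 72.4% of all), SUZ12 at 10 (against 70.1% of all) and AEBP2 at 10 (against 48.0% of all). The 3 without EZH2 were COL6A1, COL9A2 and COL20A1. Of the 15 with H3K27me3 alone, 12 had EZH2 (against 78.5% of all genes in that state) and 5 SUZ12 (against 54.7%). Of the 5 with both marks, 5 had EZH2 (against 96.7%), 5 SUZ12 (against 88.1%) and 5 JARID2 (against 78.1%), shares that genes at large in that state also approached. The median EZH2 fold was 6.14 at collagen genes with H3K27me3 alone, against 9.86 over all such genes. Of the 9 collagen genes with H3K4me3 alone, SUZ12 was at 9 (against 89.7% of all genes in that state) and EZH2 at 4 (against 75.7% of all), namely COL2A1, COL4A4, COL18A1 and COL28A1. JARID2 was at 3 of the 9 (against 43.0% of all) and AEBP2 at 2 (against 39.2% of all). All of EZH2, SUZ12 and JARID2 were at 12 collagen genes (30%, against 29.6% of all genes), and AEBP2 was added to them at 6 (15%, against 15.2%).

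Proteins that build or bind collagen were set beside the collagens. Of 24 basement membrane partner genes, 16 had H3K4me3 (against 57.2% of all genes) and 10 H3K27me3 (against 26.0%). H3K4me3 alone was at 10 of the 24 (against 45.3% of all genes). These were led by TINAGL1 with a fold of 71.4, HSPG2 (perlecan) with 56.8 and NID1 (nidogen) with 50.7. PXDN, the peroxidase that crosslinks type IV collagen, followed with 29.3. H3K27me3 alone was at 4 (against 14.0% of all genes). They were the laminin genes LAMA3 (28.1) and LAMA2 (4.6), the calcium-binding matrix protein gene SMOC1 (13.2) and the nidogen gene NID2 (11.3). Both marks were at 6 (against 12.0% of all genes), with the highest H3K27me3 folds at AGRN (agrin, 39.5) and SMOC2 (31.0). Of 25 matched genes for collagen folding, modification and processing, 19 had H3K4me3 (against 57.2% of all genes) and 8 H3K27me3 (against 26.0%). H3K4me3 alone was at 15 of the 25 (against 45.3% of all genes). These were led by the lysyl hydroxylase gene PLOD1 (67.7), the chaperone gene FKBP10 (25.1), the prolyl isomerase gene PPIB (23.6) and the prolyl hydroxylase gene P3H1 (20.2). LOX, the lysyl oxidase that crosslinks fibrils, had H3K27me3 alone with a fold of 68.4 and EZH2 with 92.4, and ADAMTS3, a procollagen peptidase gene, had H3K27me3 alone with 7.79. Of 6 matched collagen receptor genes, ITGB1 (40.8), DDR1 (12.5) and DDR2 (6.64) had H3K4me3 alone (against 45.3% of all genes). ITGA11 and ITGA2 had both marks (against 12.0%) and ITGA1 neither (against 28.7%).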

How the data were processed

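The submitters' processing notes name Bowtie2 2.4.1, Trim Galore 0.6.4, MACS2 2.2.7.1 and build GRCg7b. The sources used here do not state whether libraries were pooled or whether IgG served as control. For each peak the deposited lists give a fold (a ratio to local background) and the −log10 of a q-value. Deposited values were used unchanged. Peaks and RefSeq genes on assembled chromosomes were intersected (at least 1 bp) with Python 3.11.15, pandas 2.3.3 and numpy 2.4.6, and figures drawn with matplotlib 3.10.9. The interval code was tested on simulated data. Pathway and marker genes were matched by symbol (25 of 29 folding and processing genes, 6 of 8 receptors, 9 of 10 cartilage and 8 of 9 retinal markers, all others). Members, classes and lists were chosen with earlier results of these data known. Named were all type IV and fibrillar members, other members with a mark at an end or in order of fold, and at most 4 genes per pathway list and mark state in order of fold. A few other members are named for a missing peak or an interior density, chosen after their values were seen. One fibrillar collagen gene is not reported here. Promoter sequence was not analysed here. Other windows, a higher q-value limit, lists of equal size and another overlap rule were tried.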

Additional observations from a re-analysis of the deposited data

How the results depend on the processing

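The mark state of 33 of the 40 collagen genes was the same under all alternatives run. With windows of 2.5 kb COL14A1, COL27A1 and COL2A1 had both marks, so that this state held 8 genes, and COL4A3 had H3K4me3. COL26A1 lost H3K4me3 at a −log10 q of at least 5, COL7A1 lost H3K27me3 at equal list size (the 11079 strongest peaks of each list), and COL16A1 lost H3K4me3 when 50% of the smaller interval had to overlap. H3K27me3 stayed at 0 of 6 type IV genes under each alternative. At equal list size SUZ12 was at 4 collagen genes (10%, against 21.8% of all genes), JARID2 at 6 (15%, against 14.0%) and AEBP2 at 1 (2.5%, against 2.99%). Among type IV genes EZH2 was at 0 (against 29.8% of all genes), SUZ12 at 1, JARID2 at 0 and AEBP2 at 0. That setting drops most peaks of the longer lists, and the cause of these counts was not tested. Type IV genes with EZH2 were 1 with windows of 500 bp and 1 with the 50% overlap, and those with JARID2 were 0 with windows of 500 bp and 1 at a −log10 q of at least 5. Of 14 collagen genes with H3K4me3, 11 had a peak away from ends of other coding genes outside the family, and of 20 with H3K27me3, 19 did. These last alternatives and those that follow were chosen after seeing the data. The ratio of type IV to all genes in interior peaks per 100 kb was 1.93 for SUZ12 and 0.174 for AEBP2. It was 2.2 and 0.133 at a −log10 q of at least 5, 2.12 and 0 at equal list size, and 1.09 and 0.209 without COL4A5 and COL4A6. Start-only windows were not run, because the gene table gives no strand. No paired analysis was possible because each antibody has 1 list without replicate values. Read depth is unknown, so a missing peak means not detected in that list.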

Other observations

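Some marks inside collagen genes lay at ends of other genes and so did not count for the collagen's ends. COL12A1, a FACIT gene with neither mark at its ends, had 3 interior H3K4me3 peaks with folds of 2.21 to 2.67, starting 4251 to 5685 bp from its low end. A 2214 bp H3K27me3 peak with a fold of 7.2 spanned them, and all 4 lay at an end of LOC121113194. COL9A2 had 2 interior H3K4me3 peaks, with folds of 4.3 and 9.31, at an end of SMAP2. COL26A1 had an interior H3K4me3 peak with a fold of 10.5, higher than the 1.44 at its end. It started 13261 bp from the low end and lay at no end of another gene.

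COL22A1 and COL23A1 had runs of H3K27me3 peaks inside the gene. In COL22A1, whose product is found at muscle and tendon junctions, 5 interior peaks lay 4160 to 9330 bp from the high end, the strongest with a fold of 19.5. In COL23A1, 8 of 9 interior peaks started between 66784 and 84147 bp from the low end, with folds up to 7.72. COL18A1, COL6A1 and COL6A2 lie in that order on chromosome 7, with 58192 and 20298 bp between neighbours. COL18A1 had H3K4me3 alone, and COL6A1 and COL6A2 had H3K27me3 alone.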
